A study of Arabidopsis thaliana with 24 samples.

Results

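Wild-type (Columbia) Arabidopsis thaliana seeds germinated with 10 nM uniconazole were compared with wild-type seeds germinated with solvent alone. Each group held 6 Affymetrix ATH1 arrays, so the comparison used 12 of the 24 arrays of the series, chosen by genotype and treatment in their labels. Seeds of both groups lay under continuous light on agar with MS basal medium and Gamborg's vitamins that held 0.01% methanol, in which the uniconazole-P was dissolved. The other 12 arrays are 6 of the pkl mutant with solvent and 6 with uniconazole on the same media, and they served as another readout of the treatment. Seed age and the pkl allele do not appear in the labels. The submitters describe the arrays of a group as biological replicates. The p-values of genes set a change against the spread between arrays within all 4 groups, pkl included, unless another fit is named.

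Gibberellin promotes germination by loosening the cell walls of embryo and endosperm and by opposing abscisic acid. It binds the GID1 receptors, which then bring the DELLA repressors to F-box proteins such as SLY1, and the DELLA proteins are degraded. Uniconazole is a triazole that blocks a cytochrome P450 step early in gibberellin synthesis and can also inhibit other P450 enzymes, among them those that break down abscisic acid. PICKLE, the protein affected in pkl, is a chromatin remodeller that helps to silence embryonic genes during germination.

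Genes were counted in short lists that do not cover whole classes. With uniconazole 3 of 3 listed flavonoid genes and 6 of 7 genes of the gibberellin receptor and regulator list (XERICO included) were higher. So were 5 of 7 late embryogenesis abundant and 5 of 5 photosystem and antenna genes, while 4 of 10 xyloglucan-modifying and 3 of 9 tubulin genes were lower. The changes of most genes were small, and the largest of all lay in probe sets that the annotation does not list. Across the 22746 probe sets tested, 3755 (16.5%) passed an adjusted p of 0.05 in limma's moderated test, 2064 higher (9.07%) and 1691 lower (7.43%) with uniconazole. With the 12 wild-type arrays fitted alone, without the pkl arrays in the estimate of the spread, 2931 passed. Scaling every array to one median turned the split to 1411 higher and 2187 lower and the median of all changes moved from -0.02 to -0.06 on the log2 scale. All 6 arrays of one group lay beyond all 6 of the other for 1633 probe sets (7.18%), 919 higher (4.04%) and 714 lower (3.14%). A log2 change of 1 or more in either direction was reached by 358 probe sets (1.57%), of which 245 rose (1.08%) and 113 fell (0.497%). The 3′ to 5′ log2 ratio of the GAPDH control, a measure of RNA integrity, was 0.363 ± 0.0649 with uniconazole and 0.259 ± 0.0770 with solvent (mean ± SD of 6 arrays; two-sided p = 0.026 by an exact permutation test, or 0.156 adjusted over 6 array measures). With that ratio and the actin ratio (the RNA ratios) as covariates 2422 probe sets passed, 2285 of them among the 3755.

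The platform annotation gave 1 gene to 13513 probe sets, covering 13356 genes. Of these genes 1557 carried a symbol and 11799 (88.3%) carried a locus code in place of a symbol, though RefSeq's synonyms name some of these locus-only genes. Of the genes with a symbol 203 were higher and 130 lower (21.4%), and of the locus-only genes 859 were higher and 738 lower (13.5%). Their median solvent signals were 543 and 223 in deposited intensity units, which depend on the probes as well as on the transcripts. With all probe sets ranked by solvent signal and divided into 4 classes of equal size, the called share was 2.88% in the class of lowest signal, then 9.71%, 21.8% and, in the class of highest signal, 31.6%. Annotated pseudogenes, 923 in number with a median signal of 24.0, had 1 higher and 6 lower (0.758%).

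**Figure D1:**
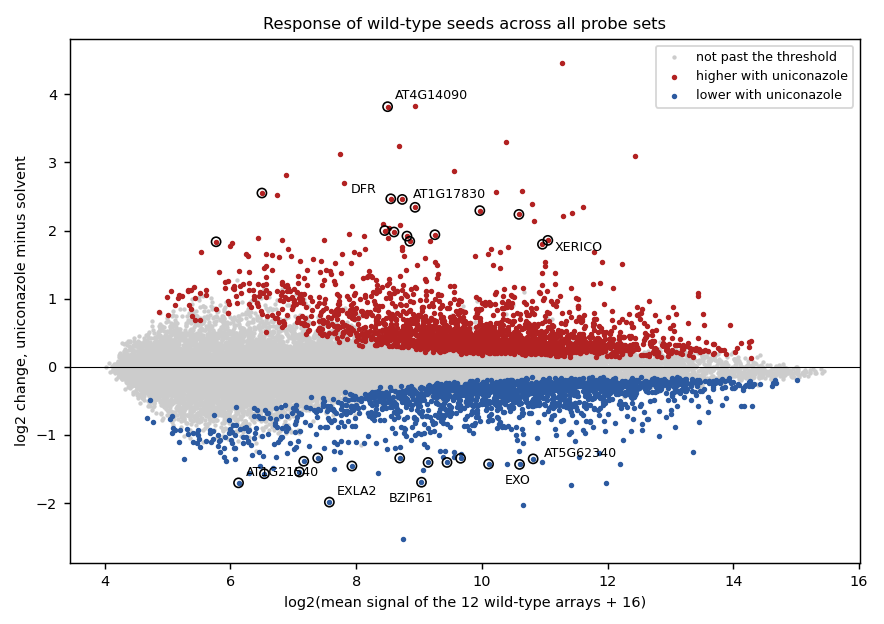
Each point is 1 of 22746 probe sets: the horizontal axis is log2 of the mean signal of the 12 wild-type arrays plus 16, the vertical axis the log2 change, uniconazole minus solvent. Red and blue points passed the threshold (adjusted p under 0.05), and circles mark the 30 genes with the largest changes under the naming rule, from AT4G14090 (3.82) to EXLA2 (-1.99).

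Under a rule that asked for 1 gene per probe set, an adjusted p under 0.05, a brighter group above the level of bacterial control probe sets (54.9 units) and no overlap between the 6 and 6 arrays, 444 genes were higher and 344 lower. Locus-only genes made up 349 of the former and 279 of the latter, 11 of the 15 largest rises and 10 of the 15 largest falls. Those shares of 78.6% and 81.1% of the genes that met the rule stand beside 88.3% of all measured genes. For the locus-only genes among these 30, the entries matched by gene ID gave no function, so none is given. Since the rule used this contrast, the values that follow describe its choices.

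AT4G14090 rose most among named genes. Its signals ran from 17.7 to 61.7 with a median of 25.9 in solvent, and from 477 to 823 with a median of 647 in uniconazole. In solvent 4 of the 6 arrays lay under the bacterial control level, so the rise is given as at least 12-fold, the uniconazole mean of 658 ± 114 (SD, n = 6) over that level. The log2 change, taken as everywhere here on log2(signal + 16), was 3.82 ± 0.20 (SE; limma adjusted p = 1.34e-13). AT3G55720 also began below the control level. Its signals were between 6.20 and 12.8 in solvent (median 9.15) and between 68.2 and 224 in uniconazole (median 125), at least 2.55-fold higher, with all 6 uniconazole arrays above that level.

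AT1G17830 had the smallest adjusted p of these 30 genes and was above background in both groups. Its 6 solvent signals lay between 95.1 and 139.6 (median 111) and its 6 uniconazole signals between 625 and 809.9 (median 704), a 6.09-fold ratio of means (log2 change 2.46 ± 0.11, adjusted p = 6.56e-15). AT2G28490 went from 284 to 357 with a median of 321 in solvent, and from 1167 to 2042 with a median of 1649 in uniconazole. The corresponding log2 change was 2.29 ± 0.12 (adjusted p = 1.34e-13). Both genes were thus tight within groups, and the lowest treated array stood more than 3-fold above the highest control array. AT4G36700 had signals between 364 and 703 in solvent (median 515) and between 1964 and 3188 in uniconazole (median 2392) and a log2 change of 2.24 ± 0.14 (adjusted p = 7.80e-12).

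Other locus-only risers varied more in solvent. AT5G36160 had 28.3 on the lowest solvent array against a median of 169, and 677 to 959.8 in uniconazole (log2 change 2.34 ± 0.26, adjusted p = 1.91e-07). AT1G68240 had 47.5 on its lowest solvent array, a solvent median of 163 and a uniconazole median of 582 (log2 change 1.98 ± 0.22, adjusted p = 1.99e-07). In both genes that lowest array was solvent replicate 5. AT5G01300 ran from 201 to 306 in solvent and from 658 to 1285 in uniconazole, with medians of 209.8 and 944 (log2 change 1.94 ± 0.13). AT5G47610 varied little within groups, at 185 ± 10.6 in solvent and 707 ± 62.0 in uniconazole (mean ± SD, n = 6; log2 change 1.84 ± 0.10, adjusted p = 2.20e-13). AT4G16980 rose by 1.86 on its brighter probe set, from 906 ± 201 to 3299.6 ± 552, whereas its other probe set, at 37.6 and 42.3, was under the control level in both groups and did not pass (log2 change 0.08, adjusted p = 0.917). AT3G22490 had a solvent mean of 7.03 ± 3.96 and a uniconazole mean of 70.2 ± 30.7, at least 1.28-fold higher.

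The falls were smaller than the rises. AT5G62340 had signals between 2084 and 2843 in solvent (median 2661) and between 931 and 1157 in uniconazole (median 969.8). The ratio of means was 2.58 (log2 change -1.35 ± 0.10, adjusted p = 1.23e-10). Its neighbour on the chromosome, AT5G62330, fell with it, from 194 to 406 with a median of 365 in solvent, and from 34.5 to 173 with a median of 125 in uniconazole (log2 change -1.46 ± 0.30, adjusted p = 9.07e-04). In both genes the 2 groups did not overlap, as the rule required. AT5G47330 ran from 1366 to 1768 with a median of 1585 in solvent, and from 464 to 732 with a median of 603 in uniconazole, which gave a log2 change of -1.43 ± 0.13 (adjusted p = 5.16e-09). AT1G80280 had signals between 718 and 947 in solvent (median 789) and between 232 and 343 in uniconazole (median 301) (log2 change -1.40 ± 0.10, adjusted p = 1.08e-10). AT5G46940 fell from 1138 ± 171 in solvent to 449 ± 123 in uniconazole (log2 change -1.34 ± 0.15) and AT1G48330 from 578 ± 128 to 217 ± 44.7 (log2 change -1.34 ± 0.15). That the groups do not overlap in these genes was a condition of the rule.

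The remaining locus-only falls started from low signals. AT1G14730 went from 184 ± 57.8 to 58.2 ± 35.0 (log2 change -1.54 ± 0.35, adjusted p = 0.00224) and AT3G53250 from 225 ± 66.7 to 78.5 ± 24.9 (log2 change -1.34 ± 0.24). AT1G21540 and AT5G20560 had uniconazole means below the bacterial control level. The former had signals between 53.7 and 169 in solvent (median 77.0) and between 7.6 and 38.8 in uniconazole (median 11.3), at least 1.67-fold lower with uniconazole (log2 change -1.70 ± 0.29, adjusted p = 1.06e-04). The latter had signals between 78.8 and 160.0 in solvent (median 119) and between 12.1 and 64.6 in uniconazole (median 29.5), at least 2.21-fold lower (log2 change -1.57 ± 0.29, adjusted p = 2.48e-04). No solvent array of either gene passed 169 units.

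**Figure D2:**
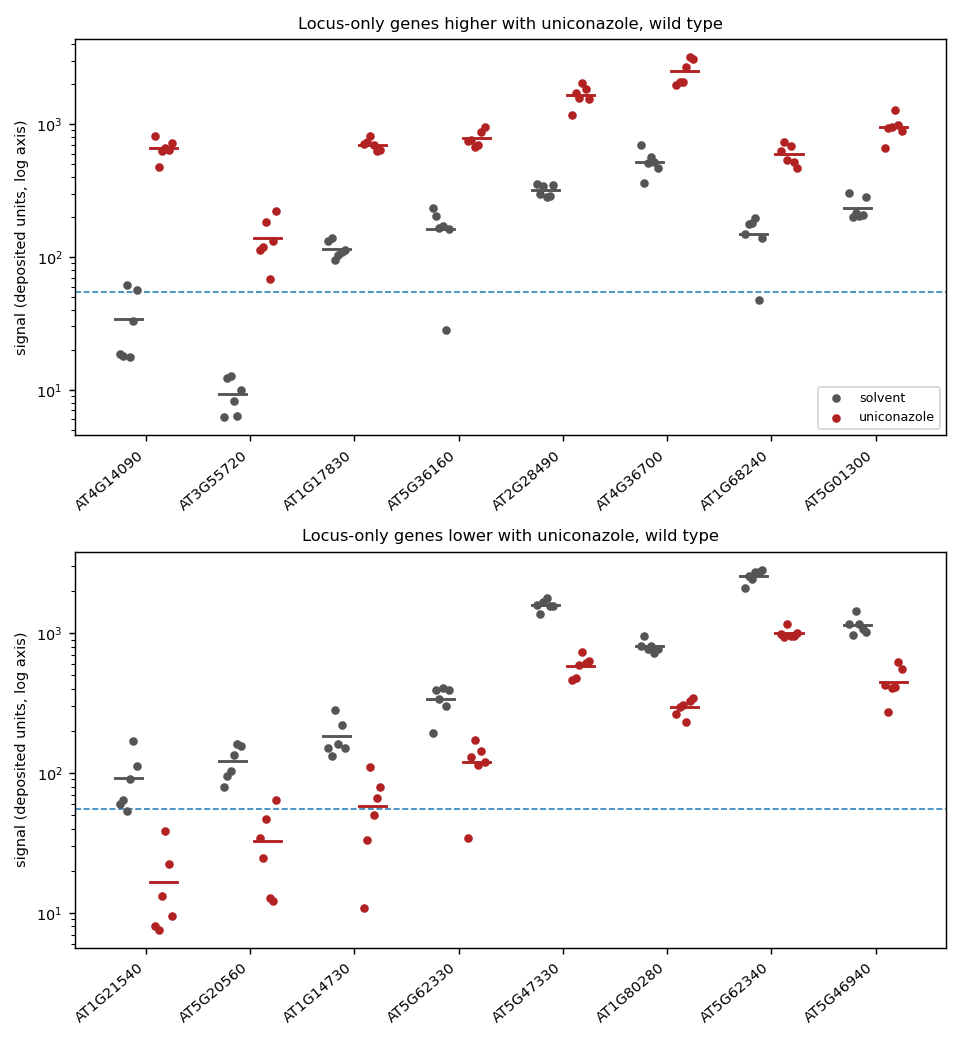
Signals of the 8 locus-only genes with the largest rises (top) and the 8 with the largest falls (bottom) in wild type, on a log axis in deposited units; each dot is 1 array, each bar the mean of 6, and the dashed line the bacterial control level of 54.9. The 6 uniconazole arrays lie on one side of the 6 solvent arrays in all 16 genes, as the naming rule required, and the solvent dots of AT3G55720 all lie under the dashed line.

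Among genes with a symbol, 4 of the 15 largest rises were DFR, CYP71B26, UF3GT and XERICO. DFR, dihydroflavonol 4-reductase of anthocyanin synthesis, had signals between 18.0 and 153 in solvent (median 118) and between 440.0 and 751 in uniconazole (median 626), with solvent replicate 1 at 18.0 well under its group (log2 change 2.47 ± 0.26, adjusted p = 7.63e-08). UF3GT, a flavonoid glycosyltransferase, ran from 125 to 214 with a median of 176 in solvent, and from 478 to 885 with a median of 710.4 in uniconazole (log2 change 1.92 ± 0.17, adjusted p = 5.86e-09). CHIL, a chalcone isomerase-like gene and the third measured member of the flavonoid list, ran from 1364 to 1718 with a median of 1540.0 in solvent, and from 1626 to 2037 with a median of 1903 in uniconazole (log2 change 0.29 ± 0.08, adjusted p = 0.0134), with 5 of 6 uniconazole arrays above all solvent arrays. So all 3 measured genes of the flavonoid list rose, with a median of 1.92 against -0.02 over all probe sets. Of all probe sets 9.07% rose. CYP71B26 was the 1 of 24 cytochrome P450 genes that passed (4.17%, beside 16.5% of all probe sets). It had signals between 65.8 and 178 in solvent (median 132) and between 497 and 589 in uniconazole (median 545) (log2 change 2.00 ± 0.16, adjusted p = 4.38e-10), and the median of the 24 was -0.01.

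The 5 genes with a symbol among the 15 largest falls were EXLA2, BZIP61, EXO, XTH18 and P1R3. EXO, EXORDIUM, a gene linked to brassinosteroid-promoted cell expansion, fell with little spread, its signals lying between 2115 and 2381 in solvent (median 2229) and between 666 and 1000.4 in uniconazole (median 828) (log2 change -1.43 ± 0.08, adjusted p = 1.17e-12). BZIP61, a bZIP transcription factor, ran from 653 to 847 with a median of 799 in solvent, and from 141 to 322 with a median of 249 in uniconazole (log2 change -1.69 ± 0.32). P1R3, to which the tables give no function, had signals between 171 and 210.5 in solvent (median 182) and between 10.0 and 112 in uniconazole (median 75.2) (log2 change -1.39 ± 0.32, adjusted p = 0.0027). As the naming rule required, the highest treated array was below the lowest solvent array for each of these genes.

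Of the gibberellin genes, none of the synthesis and breakdown list was measured under a named probe set, and 7 genes of the receptor and regulator list were. That list also counts XERICO, which is not a receptor gene and is described below by its link to abscisic acid. In that group 6 rose, 0 fell and GID1C alone did not pass. The called share was 85.7%, beside 16.5% of all probe sets and 21.4% of genes with a symbol, and was not tested. The median log2 change was 0.63 against -0.02 over all probe sets. XERICO, a small RING-type gene whose overexpression raises abscisic acid, went from 746 to 1152 with a median of 827 in solvent, and from 2681 to 3955 with a median of 2890.4 in uniconazole (log2 change 1.80 ± 0.09, adjusted p = 2.44e-14). The receptor gene GID1B had signals between 158 and 247 in solvent (median 192) and between 434 and 759 in uniconazole (median 650.0), 3.27-fold higher by the means (log2 change 1.62 ± 0.17, adjusted p = 6.18e-08). The receptor gene GID1A had signals between 605 and 856 in solvent (median 756) and between 1484 and 1668 in uniconazole (median 1589) (log2 change 1.06 ± 0.07, adjusted p = 8.31e-12). No array of one group overlapped the other group in these 3 genes, nor in 7.18% of all probe sets.

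The third receptor gene, GID1C, did not pass: it had signals between 137 and 233 in solvent (median 179) and between 112 and 282 in uniconazole (median 154), with a log2 change of -0.12 ± 0.19 (adjusted p = 0.74). Its arrays overlapped, and its sign turned with the RNA ratios as covariates, to 0.08 (adjusted p = 0.893). The F-box gene SLY1 had signals between 743 and 924 in solvent (median 894) and between 1223 and 1404 in uniconazole (median 1339) (log2 change 0.63 ± 0.07, adjusted p = 3.34e-07). Its relative SLY2, also called SNEEZY, had signals between 84.4 and 168 in solvent (median 147) and between 194 and 265 in uniconazole (median 216) (log2 change 0.63 ± 0.16, adjusted p = 0.00608). In both F-box genes all 6 treated arrays lay above all solvent arrays, as in 4.04% of all probe sets. SPY, encoding an O-fucosyltransferase that restrains gibberellin responses, had the smallest called change, 0.33 ± 0.11 (adjusted p = 0.0387), and 1 treated array above all solvent arrays. Its call was lost without any 1 of 7 arrays, solvent replicates 3 to 6 or uniconazole replicates 1, 2 or 5 (adjusted p 0.0501 to 0.115), and with arrays scaled to one median (adjusted p = 0.148) or the RNA ratios as covariates (adjusted p = 0.278).

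**Figure D3:**
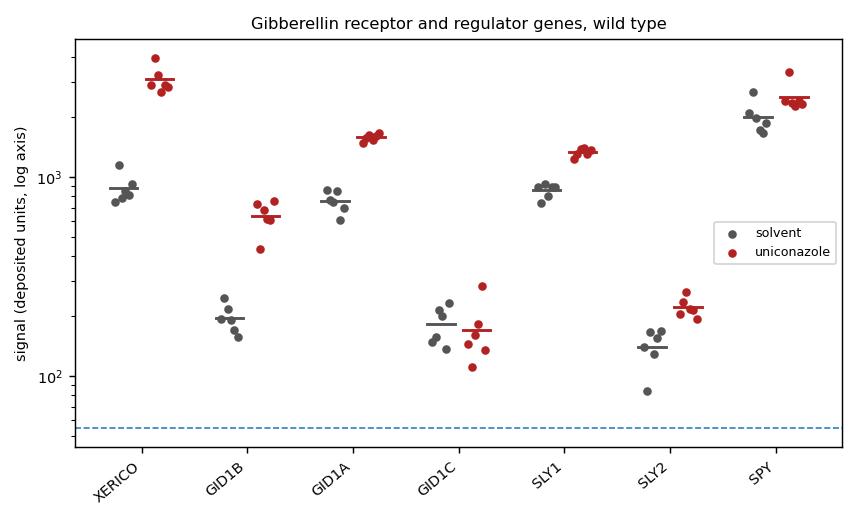
Signals of the 7 genes of the gibberellin receptor and regulator list, XERICO included, in wild type, in deposited units on a log axis. Each dot is 1 array, each bar the mean of 6, and the dashed line the bacterial control level of 54.9. Solvent and uniconazole dots are apart for XERICO, GID1A, GID1B, SLY1 and SLY2, and overlap for GID1C and SPY.

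Cell wall genes moved in both directions. Expansins, proteins that loosen walls, had 19 measured members, 3 higher, 3 lower and 13 not past the threshold, with a median of -0.18. The called share was 31.6%, beside 16.5% of all probe sets and 21.4% of genes with a symbol, and was not tested. EXLA2, expansin-like A2, had the largest fall among named genes, its signals lying between 233 and 350.0 in solvent (median 275) and between 15.8 and 128 in uniconazole (median 60.9) (log2 change -1.99 ± 0.32, adjusted p = 4.34e-05). EXLA1, its close relative, went from 442 to 630.3 with a median of 479.6 in solvent, and from 181 to 356 with a median of 235 in uniconazole (log2 change -0.97 ± 0.13, adjusted p = 2.65e-06). In the opposite direction, EXPA15 had signals between 1254 and 1791 in solvent (median 1621) and between 2431 and 3558 in uniconazole (median 3057) (log2 change 0.97 ± 0.10, adjusted p = 2.84e-08). EXPA18, a root hair expansin, ran from 293 to 631 in solvent and from 535 to 1537 in uniconazole (log2 change 0.94 ± 0.28, adjusted p = 0.0189). It lost its call without uniconazole replicate 1 or 6 (adjusted p 0.0551 to 0.0591).

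Of 10 xyloglucan-modifying enzymes (XTH genes), which cut and rejoin xyloglucan chains, 4 fell, 1 rose and 5 missed the threshold, and the median was -0.33. The called share was 50%, beside 16.5% of all probe sets and 21.4% of genes with a symbol, and was not tested. XTH18 ran from 765 to 1151 with a median of 1054 in solvent, and from 197 to 458 with a median of 396 in uniconazole (log2 change -1.40 ± 0.17, adjusted p = 6.59e-07). XTH33 fell from 555 ± 104 to 288 ± 57.4 (mean ± SD, n = 6; log2 change -0.91 ± 0.17, adjusted p = 2.48e-04) and XTH16 from 7651 ± 658 to 4255 ± 308 (log2 change -0.84 ± 0.07). XTH32 went the other way, with signals between 548 and 825 in solvent (median 693) and between 958 and 1882 in uniconazole (median 1461) (log2 change 0.96 ± 0.14, adjusted p = 1.20e-05). The 4 falling and the 1 rising XTH gene were therefore all measured well above background.

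Pectin-modifying enzymes had 4 measured members, 1 higher and 1 lower (50%). The pectin methylesterase gene ATPMEPCRB fell, from 1564 ± 148 to 881 ± 165 (log2 change -0.84 ± 0.11, adjusted p = 5.56e-06). PMEPCRF, another, rose from 72.8 ± 26.6 to 158 ± 70.2 (log2 change 0.93 ± 0.29, adjusted p = 0.03), near the bacterial control level in solvent. It lost its call without solvent replicate 2 or 5 or uniconazole replicate 1 or 6 (adjusted p 0.0534 to 0.0866) and with an offset of 1 (adjusted p = 0.0554). Of 5 other wall proteins 1 passed (20%), HRGP1, a hydroxyproline-rich glycoprotein. Its signals lay between 924 and 1891 in solvent (median 1233) and between 1344 and 4522 in uniconazole (median 2604) (log2 change 1.00 ± 0.25, adjusted p = 0.0056). Glycosyl hydrolases had 15 members, 2 lower and 0 higher, a share of 13.3% beside 16.5% of all probe sets. Both were of the GH9 family that holds cellulases. GH9B13 changed by -0.43 ± 0.13 (adjusted p = 0.0289; 0.0576 to 0.071 without solvent replicate 2 or uniconazole replicate 2, 4 or 5, and 0.192 with the RNA ratios as covariates) and GH9B7 by -0.21 ± 0.07 (adjusted p = 0.0482). The call of GH9B7 was lost without any 1 of 9 arrays, solvent replicates 2 to 6 or uniconazole replicates 2 to 5 (adjusted p 0.0506 to 0.119), and under 4 other settings, the RNA ratios among them (adjusted p 0.0539 to 0.173).

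Tubulins, the subunits of microtubules, had 9 measured members, of which 3 fell and 0 rose, with all 9 log2 changes between -0.46 and -0.02. The called share was 33.3%, beside 16.5% of all probe sets, 21.4% of genes with a symbol and 31.6% of the class of highest signal. It was not tested. TUB7 ran from 2568 to 2895 with a median of 2814 in solvent, and from 1730.1 to 2294 with a median of 2078 in uniconazole (log2 change -0.46 ± 0.08, adjusted p = 2.53e-04). TUB1 had signals between 5311 and 6798 in solvent (median 6248) and between 4042 and 5226 in uniconazole (median 4849) (log2 change -0.35 ± 0.09, adjusted p = 0.00804; 0.0517 with the RNA ratios as covariates). TUB5 changed by -0.26 ± 0.08 (adjusted p = 0.0276), with 1 treated array below all solvent arrays, and lost its call without solvent replicate 3, 4 or 5 or uniconazole replicate 2 (adjusted p 0.0685 to 0.0806) and with the RNA ratios as covariates (adjusted p = 0.0835). Scaling to one median moved the median of the tubulins from -0.15 to -0.20. Among genes chosen after their values were seen, 2 that act on growth fell: THE1, a receptor kinase that senses wall integrity, from 1209 ± 90.7 to 718 ± 37.1 (log2 change -0.74 ± 0.07, adjusted p = 1.52e-08), and WAG2, a protein kinase of auxin transport, from 754 ± 99.4 to 328 ± 73.2 (log2 change -1.18 ± 0.16, adjusted p = 3.75e-06).

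Genes of seed maturation were mostly higher with uniconazole. Late embryogenesis abundant (LEA) proteins protect dry cells, and of 7 genes 5 rose and 1 fell, the median being 0.62. The called share was 85.7%, beside 16.5% of all probe sets and 21.4% of genes with a symbol, and was not tested. LEA4-5 went from 4658 to 7225 with a median of 6123 in solvent, and from 8947 to 13143 with a median of 11149 in uniconazole (log2 change 0.88 ± 0.11, adjusted p = 2.29e-06). LEA18 had signals between 6993 and 9655 in solvent (median 9165) and between 13192 and 17544 in uniconazole (median 13811) (log2 change 0.78 ± 0.09, adjusted p = 4.37e-07). The locus AT1G54410, given in RefSeq as an 11 kDa dehydrin, rose from 5641 ± 1231 to 8806 ± 739 (log2 change 0.67 ± 0.11, adjusted p = 7.17e-05). Treated and solvent arrays were apart in all 3 genes, the largest called changes of the list, and in 7.18% of all probe sets. The member that fell, AT2G46140 (late embryogenesis abundant 27), went from 4339 ± 355 to 3149.7 ± 281 (log2 change -0.46 ± 0.09, adjusted p = 3.30e-04).

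Germinating seed markers were measured for all 8 genes listed, and 7 lay above the bacterial control level in both groups. Of the 8, 5 rose, beside 9.07% of all probe sets that rose, and 0 fell. LEA4-5 and LEA18, among those that rose, are the same genes counted in the LEA list. The summed signal of the 8 per array ran from 51677 to 66508 in solvent and from 62554 to 83294 in uniconazole, so the ranges overlapped. The others did not pass in limma's test: ICL changed by -0.07 (adjusted p = 0.632), SDP1 by -0.12 (adjusted p = 0.323) and M10, near the control level, by 0.17 (adjusted p = 0.78). ICL was the brightest of the 8, with means of 39080 in solvent and 37329 in uniconazole. OLEO3, an oil-body oleosin, had signals between 1598 and 2577 in solvent (median 2052) and between 3439 and 4505 in uniconazole (median 3666) (log2 change 0.89 ± 0.10, adjusted p = 1.53e-07). M17, a late seed gene, had signals between 116 and 189.6 in solvent (median 145) and between 339.8 and 443 in uniconazole (median 406) (log2 change 1.31 ± 0.16, adjusted p = 6.59e-07). PAP85, a storage globulin-like gene, had signals between 134 and 223 in solvent (median 160.3) and between 216 and 412 in uniconazole (median 291) (log2 change 0.79 ± 0.14). Whole seeds were measured, so fewer cells of a type and less RNA per cell cannot be told apart. Root hair markers numbered 2, of which 1 rose, EXPA18, also counted with the expansins. The summed signals of the 2 were 529.6 to 1122 in solvent and 769.6 to 2328 in uniconazole. None of the 5 markers listed for other organs had a named probe set.

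Nuclear genes of photosynthesis rose by small amounts. All 5 measured genes of the photosystem and antenna list, which does not hold every such gene, rose, with a median of 0.45. The called share was 100%, beside 16.5% of all probe sets and 21.4% of genes with a symbol, and was not tested. The score of the 5, their mean log2 value per array, was higher by 0.55 in uniconazole, with 6 of 6 treated arrays above all solvent arrays. LHCB4.2, an antenna protein of photosystem II, ran from 409 to 644 with a median of 535 in solvent, and from 822 to 1176 with a median of 1053 in uniconazole (log2 change 0.92 ± 0.20, adjusted p = 0.00144). LHCB4.1 had signals between 2247 and 3175 in solvent (median 2626) and between 3061 and 5045 in uniconazole (median 4400.1) (log2 change 0.64 ± 0.13, adjusted p = 9.26e-04). LHCB4.3 rose by 0.45 (adjusted p = 0.0115; 0.0775 with the RNA ratios as covariates), PSBW, a subunit of photosystem II, by 0.43 (adjusted p = 0.00276) and PSBY by 0.33 (adjusted p = 0.00536; 0.0921 with the covariates). Outside that list and chosen after its values were seen, PSAE-1 of photosystem I had signals between 1438 and 1639 in solvent (median 1534) and between 2293 and 3612 in uniconazole (median 2591) (log2 change 0.79 ± 0.17, adjusted p = 0.00175).

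Both measured genes of the Calvin cycle list rose as well, beside 9.07% of all probe sets that rose. PRK, phosphoribulokinase, had signals between 1248 and 1704 in solvent (median 1466) and between 1826 and 2797 in uniconazole (median 2285) (log2 change 0.60 ± 0.10, adjusted p = 9.91e-05). SBPASE, sedoheptulose-bisphosphatase, rose by 0.37 (adjusted p = 8.85e-04; 0.0511 with the RNA ratios as covariates). In limma's test 0 of 3 chlorophyll synthesis genes passed (2 higher and 0 lower at an unadjusted p under 0.05), with changes of 0.16 to 0.19. Green tissue markers had 2 of 3 higher, and LHCB4.1 among them is also counted in the photosystem and antenna list. The summed signals of the 3 were 11084 to 15343 in solvent and 12719 to 20652 in uniconazole. Of 69 chloroplast-encoded genes 4 rose and 0 fell, beside 9.07% of all probe sets that rose, with a median of 0.16. The plastid gene rbcL, for the large subunit of Rubisco, ran from 903 to 1130.1 with a median of 989 in solvent, and from 1241 to 1802 with a median of 1443 in uniconazole (log2 change 0.55 ± 0.11, adjusted p = 7.10e-04). The photosystem I gene psaB rose by 0.42 ± 0.13 (adjusted p = 0.0239; 0.0588 to 0.0684 without solvent replicate 6 or uniconazole replicate 3 or 5, and 0.201 with the RNA ratios as covariates). The ATP synthase gene atpH rose by 0.43 ± 0.15 (adjusted p = 0.0497), a call lost without any 1 of 7 arrays, solvent replicates 1, 2 or 6 or uniconazole replicates 3 to 6 (adjusted p 0.0689 to 0.147), or with the RNA ratios as covariates (adjusted p = 0.18).

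Enzymes that conjugate small molecules were mixed. Shares called are set beside 16.5% of all probe sets and 21.4% of genes with a symbol, and none was tested. UDP-glycosyltransferases, which attach sugars to flavonoids, hormones and foreign compounds, had 45 measured genes, 9 higher and 2 lower (24.4%). Their median was 0.05, and 0.00 with arrays scaled to one median. Beside UF3GT, UGT71C1 ran from 304 to 707 with a median of 441 in solvent, and from 719.8 to 1398 with a median of 997 in uniconazole (log2 change 1.09 ± 0.23, adjusted p = 0.00115). UGT76E11 had signals between 239.6 and 495 in solvent (median 401) and between 575 and 869 in uniconazole (median 728) (log2 change 0.90 ± 0.14, adjusted p = 2.28e-05). Also in this family, and chosen after their values were seen, UGT76E2 rose by 0.82 and UGT71C2 by 0.68 (adjusted p = 0.00122 and 1.65e-05). Glutathione transferases split evenly, 3 higher and 3 lower of 13 (46.2%), with a median of -0.27. GSTU16 rose from 552 ± 86.1 to 873 ± 95.9 (log2 change 0.65 ± 0.10, adjusted p = 2.32e-05). GSTU25 fell from 1723 ± 205 to 1129.5 ± 74.7 (log2 change -0.60 ± 0.10) and its neighbour GSTU26 from 3158 ± 338 to 2205 ± 389 (log2 change -0.53 ± 0.13, adjusted p = 0.0055; 0.0931 with the RNA ratios as covariates). Of 9 peroxidases 1 passed (11.1%), PRXR1, whose signals were between 4014 and 4745 in solvent (median 4462) and between 6297 and 7669 in uniconazole (median 7361) (log2 change 0.71 ± 0.07, adjusted p = 3.53e-08).

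Calls in transcription factor lists went in both directions. Of 22 bZIP factors 1 rose and 4 fell, with a median of 0.07. Their called share was 22.7%, beside 16.5% of all probe sets and 21.4% of genes with a symbol. EEL, a bZIP factor of maturing embryos, had signals between 111 and 190.1 in solvent (median 141) and between 223 and 294 in uniconazole (median 268) (log2 change 0.83 ± 0.14, adjusted p = 9.45e-05). Its relative bZIP52 fell from 553 ± 36.1 to 421 ± 41.0 (log2 change -0.38 ± 0.09, adjusted p = 0.00222). Of 7 bHLH factors 2 rose and 1 fell (42.9%). Of these, bHLH104, known for iron responses, rose by 0.42 ± 0.10 (adjusted p = 0.00391), bHLH34 changed by -0.35 ± 0.09 (adjusted p = 0.00596), and bHLH121 by 0.29 ± 0.10 (adjusted p = 0.048). The last call was lost without any 1 of 10 arrays, solvent replicates 2 to 6 or uniconazole replicates 1 to 4 or 6 (adjusted p 0.0562 to 0.133), and with arrays scaled to one median (adjusted p = 0.149). ZAP1, a WRKY factor, was the 1 of 7 WRKY genes (14.3%) that passed, with signals between 549.8 and 701 in solvent (median 649) and between 854 and 1103 in uniconazole (median 898) (log2 change 0.55 ± 0.11, adjusted p = 5.68e-04).

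In limma's test 0 of 9 auxin-related genes passed (0 higher and 1 lower at an unadjusted p under 0.05) and 0 of 9 defence genes (0 higher and 2 lower), with medians of -0.14 and -0.20. These lists leave out called genes. The auxin list does not hold WAG2, described above, or YUC6 and WES1, which changed by -1.49 and -0.44 (limma adjusted p = 0.0155 and 9.94e-04). YUC6 had a uniconazole mean under the bacterial control level. The defence list does not hold the 2 plant defensin (PDF) genes that rose. Other short lists held 1 call each, so their shares rest on single genes. They are set beside 16.5% of all probe sets and 21.4% of genes with a symbol. Heat shock and chaperone genes had 1 of 4 higher (25%), Cpn60beta4 of the chloroplast chaperonin (0.35 ± 0.10, adjusted p = 0.0157; 0.0534 with arrays scaled to one median and 0.195 with the RNA ratios as covariates). Histones had 1 of 7 higher (14.3%), the drought-induced linker histone HIS1-3, which ran from 16.3 to 101 with a median of 84.4 in solvent, and from 105 to 175 with a median of 155 in uniconazole (log2 change 0.89 ± 0.23, adjusted p = 0.00646; 0.0527 when the 12 wild-type arrays were fitted alone). The RING and F-box list, which does not hold XERICO, SLY1 or SLY2, had 1 of 3 lower (33.3%). This was BRH1, a brassinosteroid-responsive RING gene, from 851 ± 112 to 618 ± 63.7 (log2 change -0.45 ± 0.10, adjusted p = 0.00204). Of the 53 lists drawn up, 24 had at least 3 measured genes, 14 had 1 or 2 and 15 had none.

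**Figure D4:**
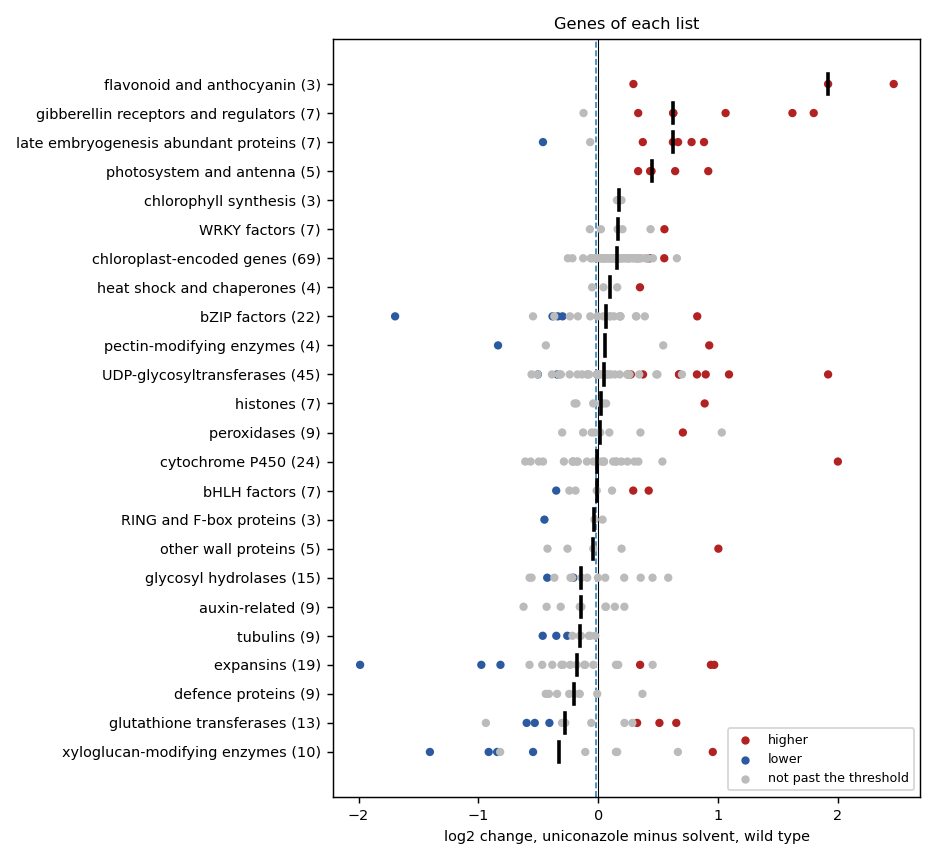
Each dot is 1 gene of a list with at least 3 measured genes (number in brackets), placed by its log2 change, uniconazole minus solvent; red rose, blue fell and grey did not pass the threshold. Black bars are list medians, from 1.92 for flavonoid and anthocyanin to -0.33 for xyloglucan-modifying enzymes, and the dashed line is the median over all probe sets, -0.02.

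Families of genes that share a symbol stem were also counted, 48 of them with at least 5 measured members. Their shares stand beside 16.5% of all probe sets and 21.4% of genes with a symbol called, and none was tested. Serine carboxypeptidase-like genes had 29 members, 3 higher and 5 lower (27.6%). The gene scpl44 ran from 12543 to 16858 with a median of 14722 in solvent, and from 4824 to 6927 with a median of 6487 in uniconazole (log2 change -1.25 ± 0.10, adjusted p = 4.14e-10). The gene scpl20 had signals between 20182 and 23883 in solvent (median 22060.5) and between 12010.2 and 18299 in uniconazole (median 14883) (log2 change -0.58 ± 0.10). SCPL45, in contrast, went from 835 ± 153 to 1726 ± 231 (log2 change 1.04 ± 0.10, adjusted p = 2.69e-08). Other members that fell were SCPL34 (-0.89), scpl25 (-0.73) and scpl48 (-0.63). These and the other family members named here were chosen after their values were seen.

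RALF-like genes encode small secreted peptides that act on cell expansion. Of 11 measured, 3 rose and 1 fell (36.4%), with a median of 0.41. RALFL32 had signals between 302 and 473 in solvent (median 425) and between 530.5 and 842 in uniconazole (median 637) (log2 change 0.69 ± 0.12, adjusted p = 1.31e-04). RALFL31 rose by 1.02 ± 0.26 near the control level (adjusted p = 0.00619; 0.0575 with the RNA ratios as covariates). RALFL34 fell from 14157 ± 1812 to 10466 ± 1335 (log2 change -0.44 ± 0.10, adjusted p = 0.00299). TRM genes (TON1 recruiting motif), whose products act at microtubule arrays, had 4 of 15 higher and 0 lower (26.7%). TRM19 had signals between 226 and 356 in solvent (median 259) and between 476 and 584 in uniconazole (median 524) (log2 change 0.93 ± 0.10, adjusted p = 1.02e-07) and TRM28 rose by 0.88 ± 0.15. PRA1 genes, prenylated RAB acceptors of membrane traffic, had 0 of 11 higher and 4 lower (36.4%), among them PRA1.B4, from 3746 ± 296 to 2524 ± 325 (log2 change -0.57 ± 0.09, adjusted p = 3.80e-05), and PRA1.B6 (-0.52 ± 0.10, adjusted p = 3.82e-04).

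Among other families, ATG genes of autophagy had 2 of 8 higher (25%), ATG8D (0.44 ± 0.09, adjusted p = 0.00132) and ATG8F (0.26 ± 0.06, adjusted p = 0.00211). Beta-glucosidases (BGLU) had 3 higher and 2 lower of 20 (25%). BGLU25 went from 1691 to 2120.0 with a median of 1988 in solvent, and from 2581 to 3509.9 with a median of 2685 in uniconazole (log2 change 0.51 ± 0.08, adjusted p = 7.23e-05). Plant defensins (PDF) had 2 of 7 higher (28.6%), and PDF2.5 had signals between 91.6 and 274 in solvent (median 211) and between 301 and 562 in uniconazole (median 515) (log2 change 1.21 ± 0.20, adjusted p = 7.39e-05). NET genes, named for actin-binding Networked proteins, had 2 of 10 higher (20%), and NET3C, at 21.9 ± 16.1 in solvent and 98.0 ± 21.1 in uniconazole, was at least 1.79-fold higher. IQD genes of calmodulin-binding proteins had 2 higher and 1 lower of 15 (20%), and IQD24 had signals between 23.0 and 152 in solvent (median 64) and between 204 and 282 in uniconazole (median 234) (log2 change 1.55 ± 0.27, adjusted p = 1.67e-04).

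RefSeq's gene order gave 5814 adjacent pairs of measured protein-coding genes, of which 1616 had at least 1 called gene and 156 had both, 61 both higher, 33 both lower and 62 in opposite directions. Pairs with both called were thus 2.68% of all pairs, where 15.2% of the pair members were called, and this share was not tested. The pair with the largest changes in one direction was AT5G62330 and AT5G62340, whose values stand with the falls. AT5G38780 and AT5G38790 moved apart, the first by 1.24 ± 0.25 (adjusted p = 7.17e-04) and the second by -1.32 ± 0.33 (adjusted p = 0.00613; 0.0931 with the RNA ratios as covariates), both with a group mean under the control level. AT1G54860 and AT1G54870 both rose, by 1.06 and 0.90. AT5G02540 and AT5G02550 both fell, by 1.01 and 0.79 on the log2 scale. In a run of 3 genes, AT2G43530, AT2G43535 and AT2G43540, the middle gene had signals between 1118 and 1577 in solvent (median 1379.8) and between 2662 and 3589 in uniconazole (median 3223) (log2 change 1.22 ± 0.10, adjusted p = 2.47e-09), and its neighbours changed by 0.69 and 0.67 (adjusted p = 0.00781 and 1.65e-05; for the former 0.0879 with the covariates and 0.0512 when the 12 wild-type arrays were fitted alone). LEA18 rose with its neighbour AT2G35310 (reproductive meristem 23 in RefSeq), which changed by 0.77 ± 0.10, and UGT71C1 with UGT71C2. Whether probe sets of such neighbours read each other's transcripts was not tested.

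Some responses had 1 group at background. For 35 genes that rose the solvent mean was at or under the bacterial control level, and for 30 that fell the uniconazole mean was. Of these 32 (91.4%) and 27 (90%) were locus-only, beside 88.3% of all measured genes. Another 32 called genes had both means there and are given no fold. Probe sets that the annotation did not list numbered 8730 and held 970 higher and 786 lower, and the largest changes of all were among them. Probe set 250611_at had signals between 178 and 247 in solvent (median 195) and between 4153 and 5449 in uniconazole (median 4721), 23.6-fold higher by the means (log2 change 4.46 ± 0.09, adjusted p = 8.31e-23). Probe set 248371_at went from 172 to 317 with a median of 222 in solvent, and from 2139 to 2709 with a median of 2411 in uniconazole (log2 change 3.31 ± 0.10). The largest fall was that of 264157_at, with signals between 558 and 843 in solvent (median 707) and between 56.5 and 199 in uniconazole (median 107) (log2 change -2.52 ± 0.24, adjusted p = 2.03e-08), followed among the 4 described by 260221_at (-2.03 ± 0.15). They are unnamed here.

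The pkl arrays, none of which is in either wild-type group, gave another reading of the response. Both comparisons came from 1 fit with 1 shared spread per probe set, so calls in the 2 genotypes are not independent. There 4999 probe sets passed (22%), 2594 higher (11.4%) and 2405 lower (10.6%). Of the 2064 probe sets higher in wild type, 1503 (72.8%) were also called higher in pkl and 1 lower. Of the 1691 lower in wild type, 1307 (77.3%) were also called lower and 4 higher. Locus-only genes gave 596 of 859 (69.4%) and 537 of 738 (72.8%). All 15 of the largest rises passed in pkl in the same direction, AT4G14090 by 3.61 ± 0.20 and AT1G17830 by 2.14 ± 0.11, and 13 of the 15 largest falls did. The exceptions were AT1G21540, at -1.70 in wild type and -0.03 in pkl, and AT5G20560, at -1.57 and -0.11. For neither did the difference between genotypes pass (adjusted p = 0.133 and 0.219). Of falls of at least 1 on the log2 scale, 69 of 113 (61.1%) were also called lower in pkl and 2 higher, and 88 had the same sign. Of such rises 211 of 245 (86.1%) were also called higher and 0 lower, and 240 had the same sign.

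The difference of the 2 responses itself passed for 32 probe sets (0.141%). Of the genes named by rule, AT5G62340 was among them, with -1.35 in wild type and -2.02 in pkl (adjusted p of the difference = 0.044). Others were chosen after their values were seen. OLEO3 rose by 0.89 in wild type and 1.75 in pkl (adjusted p of the difference = 0.00371), and LEA, a dehydrin gene, by 0.62 and 1.5 (0.0223). The locus AT1G13930 had signals between 2291 and 2770.0 in solvent (median 2436) and between 6312 and 8278 in uniconazole (median 6982) in wild type, a change of 1.51 against 2.13 in pkl (0.00211), and AT3G18570 rose by 1.08 and 2.28 (0.0109). These 4 genes rose in both genotypes and more in pkl. Among falls, scpl44 changed by -1.25 and -2.15 (0.00211) and XTH19 by -0.54 and -1.54 (0.00902). AT1G21520 went in opposite directions, -0.71 in wild type, where both means were under the control level, and 2.38 in pkl (adjusted p of the difference = 1.24e-05). Its call in wild type (adjusted p = 0.0383) was lost without any 1 of 7 arrays, solvent replicates 2, 3, 5 or 6 or uniconazole replicates 1, 3 or 4 (adjusted p 0.0544 to 0.109).

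**Figure D5:**
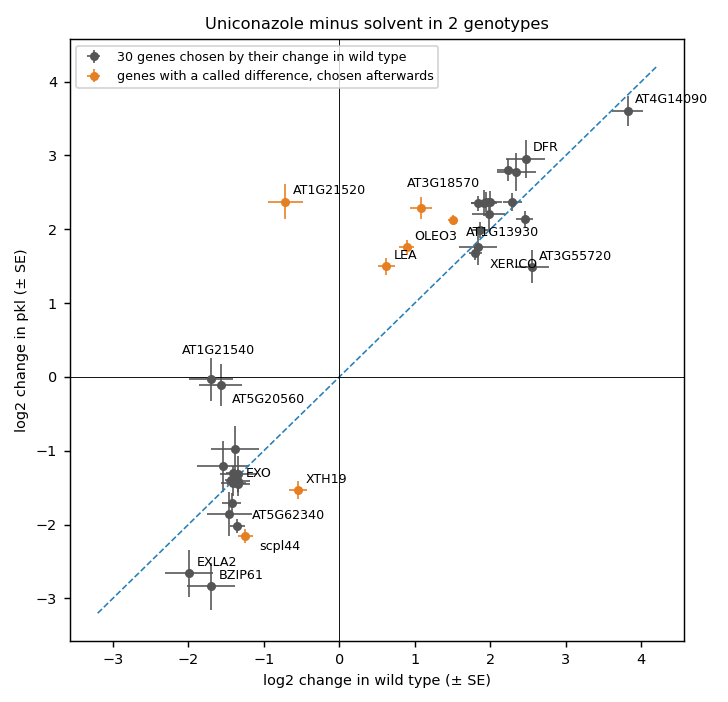
Log2 change with uniconazole in wild type (horizontal, ± SE) against that in pkl (vertical, ± SE), each from 6 and 6 arrays; the dashed line marks equal change. Grey points are the 30 genes chosen by their change in wild type and orange points are genes with a called difference that were chosen afterwards; AT1G21540 and AT5G20560 sit near 0 in pkl and AT1G21520 has opposite signs.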

How the data were processed

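Seeds were profiled on ATH1 arrays, 6 per group. The authors deposited linear intensities made with MAS5, per the submitters' processing notes; which version they ran is not given in the sources used here. Arrays had been scaled to a trimmed mean of 1000.1. The 64 Affymetrix controls were left out. Here log2(signal + 16) of all 24 arrays entered 1 limma 3.58.1 fit in R 4.3.3 (lmFit, eBayes with a variance trend, 4 groups, 20 residual degrees of freedom), with Benjamini-Hochberg adjustment over 22746 probe sets. The offset understates changes of dim probe sets. The number of arrays limits the precision. The bacterial control level is the 95th percentile of 648 values of 27 bacterial control probe sets; a group mean at or under it gives a lower bound, the brighter mean over 54.9.

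Symbols came from the platform annotation and RefSeq's TAIR10.1 gene table, in which 13436 of the 13513 probe sets with 1 gene matched; 503 had several genes and are unnamed. A gene's brightest probe set stands for it. The deposited table names no genome build, so no coordinates are given. Members and lists were chosen with earlier results of these data known, and some list word patterns were corrected after they had matched unrelated names. Named genes were the 15 largest rises and falls, the 8 largest locus-only ones, up to 3 called genes per list, the gibberellin genes, and up to 5 with a called difference between genotypes. The fit was tested on simulated data. Deviations of same-numbered wild-type arrays from their group means correlated at -0.0662 to 0.119, and only sets 2 and 3 matched their own number best. The arrays were therefore not treated as pairs in the main fit.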

Additional observations from a re-analysis of the deposited data

Results flagged for a closer look

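Single arrays stood apart from the other 5 of their group in 21 of 284 groups of 6 tested, where chance gives about 1 in 20. The measure is the gap to the nearest array divided by the range of the group. In solvent these were DFR (0.775), BZIP61 (0.732), HIS1-3 (0.864) and PDF2.5 (0.683) in replicate 1, AT5G36160 (0.800) and AT1G68240 (0.731) in replicate 5, and THE1 (0.645) in replicate 4. In uniconazole replicate 1 stood apart for AT5G62330 (0.717) and XTH19 (0.650). Replicate 2 did for ATPMEPCRB (0.627), TUB5 (0.736), GSTU26 (0.640), SPY (0.844) and CRT1b (0.711). Replicate 3 did for AT5G62340 (0.656) and replicate 4 for ATG8F (0.666). Replicate 5 did for PRXR1 (0.680) and RALFL34 (0.720), and replicate 6 for P1R3 (0.638), BGLU25 (0.769) and AT5G38790 (0.674).

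The response differed between wild type and pkl by limma's test of the difference for 8 genes that are described. The adjusted p of the difference was 1.24e-05 for AT1G21520, the 1 gene with opposite signs, 0.00211 for scpl44, 0.00211 for AT1G13930, 0.00371 for OLEO3, 0.00902 for XTH19, 0.0109 for AT3G18570, 0.0223 for LEA and 0.044 for AT5G62340. The other 7 genes moved in the same direction in both genotypes and further in pkl.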

How the results depend on the processing

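The 21 alternatives changed the offset, the scaling, the filter, the arrays fitted, the covariates or the variance trend, or left out 1 array. With an offset of 64, 171 probe sets changed by 1 or more on the log2 scale in place of 358. With the RNA ratios as covariates 1374 were higher and 1048 lower, 2422 in all in place of 3755, 0 of the shared calls turned, and GID1C turned from -0.12 to 0.08 (0.0752), neither past the threshold. Without a variance trend the difference between genotypes passed for 20 probe sets in place of 32. The 12 wild-type arrays fitted alone gave 2931 calls and kept 2859 of the 3755 (76.1%). Leaving out 1 array gave 3200 to 3855 calls, 1744 to 2092 higher, 1433 to 1763 lower and between 343 and 392 with a change of 1 or more. A replicate block on the set number, left out of the main fit, gave 4128 calls, 3674 of them among the 3755, and ended none of the calls of the 142 genes described. Of these 142, 120 kept call and direction under every alternative that tested them, and a filter at the bacterial control level left out 3. Single arrays ended 10 calls, and other settings ended or turned 21. The causes were not tested. The number of arrays and the signal over background limit changes that can be seen in dim genes.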

Other observations

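The genes that follow were chosen after their values were seen and belong to no list above. They stand as single genes, not as a group. OCT1, an organic cation and carnitine transporter, had signals between 3461 and 5154 in solvent (median 4275) and between 7172 and 11370.1 in uniconazole (median 7687) (log2 change 0.97 ± 0.12, adjusted p = 1.05e-06). AT1G68570 and AT3G21670, both given in RefSeq as members of the NRT1/PTR family of nitrate and peptide transporters, rose from 151 ± 34.0 to 403 ± 80.4 and from 685 ± 28.6 to 1342 ± 229 (SD, n = 6; log2 changes 1.33 ± 0.14 and 0.94 ± 0.12). The arrays of the 2 groups did not overlap in these 3 genes, which were picked by their values, nor in 7.18% of all probe sets. SWEET1, a sugar transporter and the 1 of 14 SWEET genes that passed (7.14%, beside 9.07% of all probe sets higher), rose by 0.51 ± 0.07 (adjusted p = 3.91e-06), and TMT1, which moves monosaccharides into the vacuole, by 0.38 ± 0.09 (adjusted p = 0.00291).

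Several enzymes of primary metabolism changed with narrow spreads. MGL, methionine gamma-lyase, had signals between 346 and 522 in solvent (median 419.9) and between 788 and 1222 in uniconazole (median 977) (log2 change 1.19 ± 0.10, adjusted p = 3.41e-09). PGM, a phosphoglycerate mutase, ran from 266 to 453 with a median of 345 in solvent, and from 754 to 1047 with a median of 842 in uniconazole (log2 change 1.30 ± 0.11, adjusted p = 1.75e-09). HPR, hydroxypyruvate reductase of photorespiration, rose from 849 ± 96.1 to 1529.9 ± 118 (log2 change 0.84 ± 0.09) and CuAO1, a copper amine oxidase, from 1545 ± 143 to 2933 ± 109 (log2 change 0.92 ± 0.06, adjusted p = 1.79e-12). Of the starch enzymes, DPE1, the disproportionating enzyme, rose by 0.64 ± 0.08 and SBE2.2, a branching enzyme, by 0.47 ± 0.10. ASPGB1, an asparaginase, fell, with signals between 1699 and 2171 in solvent (median 2079.6) and between 877 and 1009 in uniconazole (median 943) (log2 change -1.08 ± 0.10, adjusted p = 1.15e-08). Treated and solvent arrays were apart in each of these 7 genes, which were picked by their values, and in 7.18% of all probe sets.

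ARPN, the cell wall protein plantacyanin, rose from 2679.5 ± 324 to 5936 ± 183 (log2 change 1.15 ± 0.07, adjusted p = 1.17e-12), and DRT100, a leucine-rich repeat protein, fell from 6992 ± 261 to 3634 ± 216 (log2 change -0.94 ± 0.09, adjusted p = 2.05e-08). Among the small falls, CRT1b, a calreticulin, changed by -0.35 ± 0.05 (adjusted p = 1.27e-05), ATERDJ3B, a co-chaperone, by -0.37 ± 0.07 (adjusted p = 1.85e-04) and OS9, a lectin of protein quality control, by -0.35 ± 0.08 (adjusted p = 0.00323). The clock gene GI, GIGANTEA, ran from 416 to 754 with a median of 583 in solvent, and from 815 to 1059 with a median of 918 in uniconazole (log2 change 0.70 ± 0.11, adjusted p = 5.37e-05). COR27, a cold-regulated gene, rose by 0.59 ± 0.16 (adjusted p = 0.0103; 0.0556 with the RNA ratios as covariates), and AT5G61590, given in RefSeq as DEWAX, a regulator of wax synthesis, had signals between 492 and 748 in solvent (median 567) and between 1000.3 and 1154 in uniconazole (median 1024) (log2 change 0.81 ± 0.09, adjusted p = 1.88e-07).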
